A study of Mus musculus with 116 samples.

Results

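The genes described here are 8 mouse genes of cellular iron handling: the ferritin subunits Fth1 and Ftl1, the transferrin receptor Tfrc, the iron transporters Slc11a2 and Slc40a1, the ferritin cargo receptor Ncoa4, and the iron regulatory proteins Aco1 and Ireb2. They were chosen by name from the 40202 gene rows of the count tables, and Fth1 was chosen because it is the gene with the most reads in some C10 libraries. Its levels are therefore a description and were not tested. All 8 genes had a row in every library. The libraries came from untreated cultures of C10, a mouse line labelled as alveolar type II epithelial cells, and SVEC, a mouse line labelled as endothelial cells. They were made by nanoSPLITS, a nanodroplet method that divides each lysate between RNA and protein measurement, and only RNA counts were used here. An input series held C10 libraries of 1 cell (n = 8), 3 cells (n = 6) and 10 cells (n = 6). A separate set held single-cell libraries of C10 (48, of which 46 had at least 1000 counts and were used) and SVEC (48, all used). The labels name no culture, clone, batch or date, so the spread given below is the spread between libraries.

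Cells take up iron bound to transferrin through the transferrin receptor, and the divalent metal transporter encoded by Slc11a2 moves it from endosomes into the cytosol. Iron that is not used is stored inside ferritin, a hollow shell of heavy subunits (Fth1), which oxidise iron, and light subunits (Ftl1), which help to form the mineral core. NCOA4 carries ferritin to the lysosome when iron is needed, and ferroportin, the product of Slc40a1, is the exporter of cellular iron. The iron regulatory proteins, encoded by Aco1 and Ireb2, bind a stem-loop called the iron-responsive element when iron is scarce. Bound near the start of an mRNA, as in the ferritins, they block translation, and bound in the 3′ untranslated region of Tfrc they protect the mRNA from decay. Much of ferritin control is therefore known to lie in translation, which RNA counts do not measure.

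The elements are shown because they are the sequence feature that ties these mRNAs to the regulatory proteins. The transcripts of GENCODE M21 (build GRCm38) were searched on the transcript strand for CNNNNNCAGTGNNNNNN, in which the 5 bases after the first C pair with the last 5 bases, G-T pairs allowed. Each is printed 5′ to 3′ in DNA letters with 6 bases on either side, and capitals mark the unpaired C and the 6-base loop.
Fth1, 5′ untranslated region, chr19:9982732-9982760, + strand: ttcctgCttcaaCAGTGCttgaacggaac
Ftl1, 5′ untranslated region, chr7:45459779-45459807, - strand: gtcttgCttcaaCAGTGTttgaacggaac
Slc40a1, 5′ untranslated region, chr1:45925465-45925493, - strand: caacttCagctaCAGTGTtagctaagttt
Tfrc, 3′ untranslated region, chr16:32631219-32631247, + strand: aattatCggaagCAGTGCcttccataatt
Tfrc, 3′ untranslated region, chr16:32631598-32631626, + strand: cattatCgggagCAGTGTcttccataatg
Tfrc, 3′ untranslated region, chr16:32631663-32631691, + strand: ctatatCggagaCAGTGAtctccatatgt
Tfrc, 3′ untranslated region, chr16:32631710-32631738, + strand: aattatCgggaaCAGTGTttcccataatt
The upper stem and flanks of the ferritin elements share most of their letters, and Tfrc alone among the 8 genes held 4 matches. A match of this form stood in the 5′ untranslated region of 31 of 21877 protein-coding genes (0.142%) and in the 3′ untranslated region of 129 (0.59%). Slc11a2, Ncoa4, Aco1 and Ireb2 held no match of these letters. An element with other loop letters or an unpaired base in this stem would be missed, in these genes and in Tfrc.

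Library totals ran from 430798 to 15385625 counts in the input series, from 83188 to 5911755 in C10 single cells (median 1881704) and from 5122 to 2831907 in SVEC single cells (median 434945). Values below are in CPM, the usual scaling of each count by the total of its library. The input libraries numbered 1 stood apart from the other 17 in the ferritin counts, as given below, and the 1-cell library numbered 1 also had the lowest total, with 64.6% of its counts on mitochondrial genes. Of the alveolar markers, Sftpa1, Sftpb, Sftpc and Sftpd had no count in any C10 single cell, and 6 of 12 alveolar and epithelial genes were at 0 in all 46. Others had counts: Cdh1 in 24 of 46 C10 (mean 1.01 CPM) and 1 of 48 SVEC single cells, and Abca3 in 14 and 6. Krt18 and Epcam had counts in 3 and 1 C10 cells and in no SVEC cell. Lamp3 went the other way, with a mean of 0.107 CPM in C10 (10 of 46) and 0.238 CPM in SVEC (7 of 48). Napsa did too, at 0.0139 and 0.191 CPM (2 cells with a count in each line). Of 12 endothelial genes, 6 were at 0 in all 48 SVEC libraries, among them Kdr, Tie1 and Vwf. Flt1 had the highest SVEC mean of the 12, at 11.4 CPM (8 of 48 with a count) against 0.592 CPM in C10 (13 of 46). Cdh5 and Erg also had the higher mean in SVEC, with a count in 1 of 48 libraries each. Eng (2.72 CPM in C10 against 0.425 in SVEC), Tek (0.720 against 0.0937) and Pecam1 (0.287 against 0.225) had the higher mean in C10. Of 6 fibroblast genes, Lum was at 0 in both lines and 2, Col1a1 and Dcn, were seen in most single cells of either line. Col1a2, Pdgfra and Pdgfrb had counts in 6, 9 and 4 of 46 C10 cells and in 10, 10 and 9 of 48 SVEC cells. The summed median of the 6 fibroblast genes was 2222 CPM in C10 and 1050 CPM in SVEC single cells. The 6 erythroid genes, which include the haemoglobins, had no count in any library.

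Ferritin mRNA was among the most abundant in the input series. Fth1 stood at 16166 ± 9150 CPM in 1-cell libraries (SD, n = 8), with a lowest value of 2625, a median of 16490 and a highest value of 33368. In 3-cell libraries it ranged from 6645 to 22029 CPM around a median of 18110 (n = 6), and in 10-cell libraries from 4236 to 20728 CPM around 17594 (n = 6). The range of the 1-cell libraries contained those of the other groups. Fth1 had the most reads of all genes in 3 of 8 libraries of 1 cell, and mt-Rnr2, a mitochondrial ribosomal RNA, led the other 5. In the libraries of 3 and 10 cells Fth1 led none, and its median rank was 2 in each of the 3 groups.

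Ftl1, the light subunit, followed closely. Its level was 10967 ± 4407 CPM in 1-cell libraries (range 4633 to 17280, median 11005, SD, n = 8). The 3-cell libraries held 11980 ± 3232 CPM (range 6853 to 15802, median 12186, SD, n = 6) and the 10-cell libraries 11107 ± 2812 CPM (range 6317 to 13900, median 11436, SD, n = 6). Ftl1 did not pass the threshold for any pair of input groups (edgeR quasi-likelihood test, Benjamini-Hochberg over 13645 genes, 0.05). The alternative DESeq2 did call it lower with 10 cells than with 1 cell, as given in the closing part. The log2 difference of 10 cells against 1 cell was -0.24 with a standard error of 0.37 (adjusted p = 0.974), and that of 3 cells against 1 cell was 0.016 with a standard error of 0.37 (adjusted p = 1.00). The SD of Ftl1 was 40.2% of the mean among 1-cell libraries and 25.3% among 10-cell libraries.

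**Figure D1:**
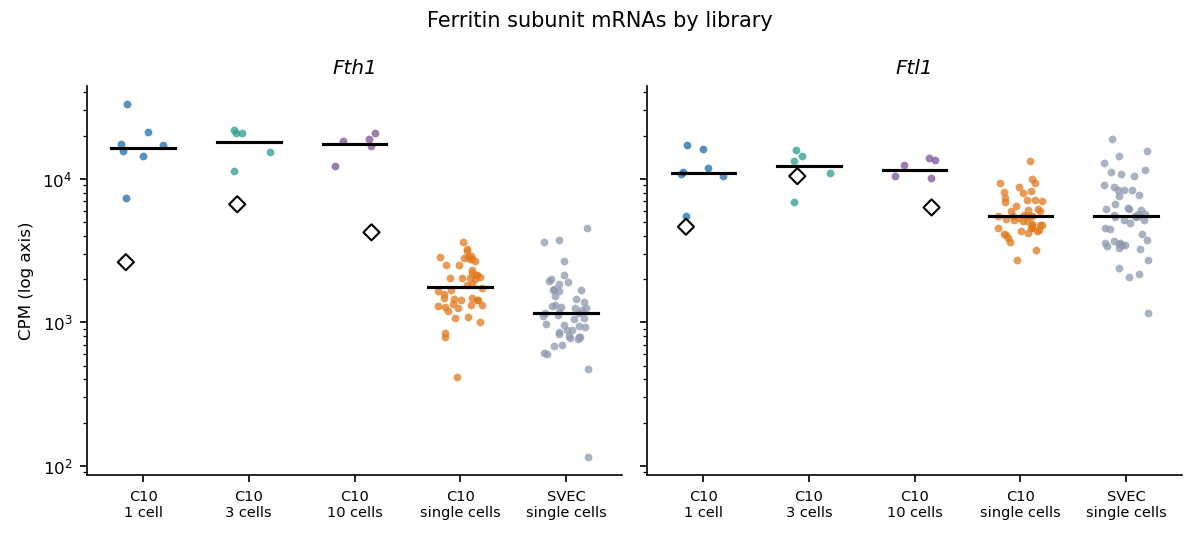
CPM of Fth1 (left) and Ftl1 (right) on a log axis in each library of the 5 groups; bars are medians and open diamonds are the input libraries numbered 1. Fth1 lies between 2625 and 33368 CPM in the input series but between 418 and 3623 CPM in C10 single cells, while the Ftl1 groups overlap.

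The same C10 line gave far fewer Fth1 reads in the single-cell set. There Fth1 stood at 1888 ± 732 CPM (SD, n = 46), with a lowest value of 418, a median of 1772 and a highest of 3623. Of the 20 input libraries, 19 lay above every C10 single cell, the exception being the 1-cell library numbered 1. Mean Fth1 was 8.56-fold higher in 1-cell libraries than in single cells, and 9.59-fold higher without that library. Ftl1 stood at 5906 ± 2023 CPM in single cells (range 2727 to 13362, median 5473, SD, n = 46), so its mean was 1.86-fold higher in 1-cell libraries, and 2.01-fold higher without the library numbered 1. Only 7 of 20 input libraries lay above every single cell for Ftl1. These are descriptions: the sets have no shared batch label, so the set and any difference between the cells cannot be told apart.

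Fth1 was next set beside other abundant RNAs. Among the 130 genes with at least 1000 CPM in C10 single cells, the median ratio of 1-cell libraries to single cells was 0.705, and Fth1 had the highest ratio. The next were mt-Rnr2 at 3.14-fold and mt-Rnr1 at 3.11-fold, and Ftl1 was in place 9. Fth1 also had the highest ratio with the 1-cell library numbered 1 left out, by medians, by summed counts and after thinning libraries to 100000 counts. Since Fth1 was chosen for its reads in C10 libraries, and led 3 of these 1-cell libraries, its place is a description and no support. Over all genes with a mean of at least 10 CPM in either set, 18% were at least 2-fold higher in 1-cell libraries and 33% at least 2-fold higher in single cells. Of the 8 iron genes, Fth1 (whose level chose it), Tfrc (2.68-fold) and Ncoa4 (2.54-fold) were among the first. Aco1 (70.2-fold) and Ireb2 (63.9-fold) were among the second. For the genes other than Fth1 these folds of means depend on the libraries with high values. By medians Tfrc was the lower in 1-cell libraries (0.241 against 0.631 CPM), Ncoa4 was 1.52-fold higher there and Slc11a2 3.07-fold higher. Median Aco1 was 2.15-fold higher in single cells, at 0.291 against 0.135 CPM, and median Ireb2 was 0 in both. By summed counts Ireb2 was 35.8-fold higher in single cells.

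**Figure D2:**
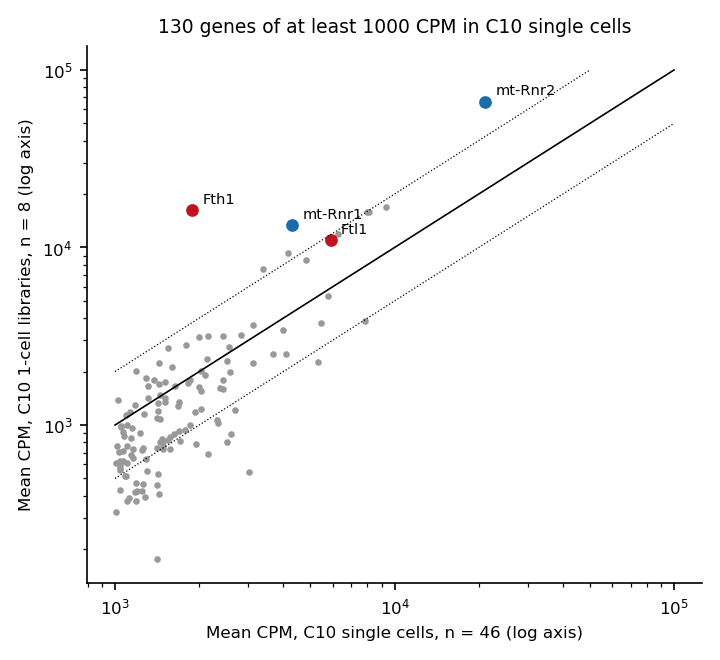
Mean CPM of 130 abundant genes in C10 single cells (n = 46, horizontal) against C10 1-cell libraries of the input series (n = 8, vertical), both on log axes; the solid line marks equal levels and the dotted lines 2-fold differences. Fth1, at 1888 against 16166 CPM, lies farthest above the line of equal levels.

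The balance of the ferritin subunits differed between the sets in the same way. In counts, the Fth1:Ftl1 ratio had a median of 1.51 in 1-cell, 1.43 in 3-cell and 1.42 in 10-cell libraries, and of 0.315 in C10 and 0.243 in SVEC single cells. It was above 1 in 6 of 8, 5 of 6 and 5 of 6 input libraries, and in 0 of 46 and 0 of 48 single cells. The 3 input libraries numbered 1 had ratios of 0.567 (1 cell), 0.637 (3 cells) and 0.671 (10 cells). The other 17 had ratios of 0.905 to 1.93, with a median of 1.48. The libraries numbered 1 thus lay near the upper end of the range of C10 single cells, 0.122 to 0.672, and the other 17 lay above it. Which subunit leads depends on whether counts are divided by transcript length. Per base of the principal transcript (1494 bases for Fth1, 968 for Ftl1) the median ratio was 0.976, 0.925 and 0.917 in the input groups, 0.204 in C10 and 0.157 in SVEC single cells. Per base of all annotated exons it was 0.582, 0.552 and 0.547 in the input groups.

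Counts of Grik3, a gene that spans a ferritin copy, split the libraries along the same line. Ftl1 shares words of 30 bases with 35 other genes annotated in GENCODE M21, 19 of them processed pseudogenes, and Fth1 with 3. Only 1 of the 19 pseudogenes, Ftl1-ps2, has a row of its own in the count tables. Several of the others lie inside larger genes that do have a row: Ftl2-ps lies inside Grik3, a glutamate receptor gene, Gm15590 inside Tulp4, Gm12164 inside F630206G17Rik and Gm6407 inside Pcdh15. Grik3 counts amounted to 1.52% to 2.00% of the Ftl1 counts in the 17 input libraries with other numbers. In the libraries numbered 1 they amounted to 5.71% (1 cell), 5.94% (3 cells) and 5.53% (10 cells), and in C10 single cells to 5.44% to 7.19% (median 6.25%, n = 46). In SVEC single cells the median was 6.09% and the range 1.97% to 7.46% (n = 48). In this share the libraries numbered 1 lay inside the range of C10 single cells. The other named host genes split so in part or not at all. Pcdh15 in the libraries numbered 1 (0.902%, 0.822% and 1.31%) lay inside the range of the other libraries of each group. The 1-cell library numbered 1 lay inside it for Tulp4 (3.11% in 2.16% to 6.11%) and F630206G17Rik (0.15% in 0.0686% to 0.152%). In the 3-cell and 10-cell groups the library numbered 1 was the highest for Tulp4 and F630206G17Rik. Counts of Mir692-3 split the other way. It lies over Ftl1-ps1, the copy that shares the most words with Ftl1 (761). In the libraries numbered 1 its counts were 0.1% (1 cell), 0.0751% (3 cells) and 0.0781% (10 cells) of the Ftl1 counts. The other input libraries held 0.21% to 0.25%, and C10 single cells 0.0239% to 0.309% (median 0.11%). Where words are shared, reads of Ftl1 and of its copies cannot be told apart from counts, so the level of Ftl1 and of these host genes is uncertain. The counter for reads with several alignments was 0 in all 116 files. The part of read assignment in the Fth1 and Ftl1 differences was not tested.

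**Figure D3:**
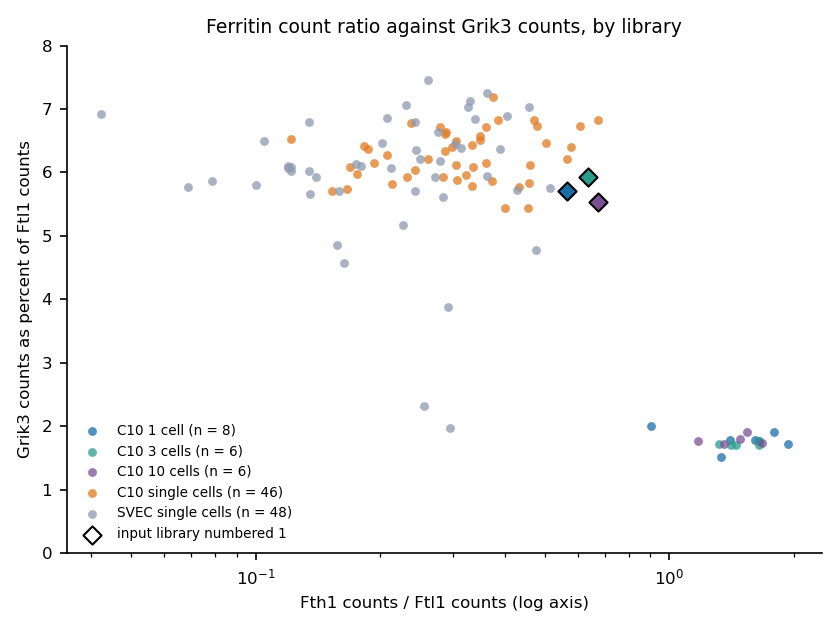
Each point is a library: the Fth1:Ftl1 count ratio on a log axis against Grik3 counts as a percent of Ftl1 counts, coloured by group, with diamonds for the input libraries numbered 1. The 17 other input libraries form a group at ratios of 0.905 to 1.93 and 1.52% to 2.00%. The 3 diamonds lie beside the C10 single cells with the highest ratios.

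Likeness over single cells showed the same host genes. Ranked by Spearman correlation of CPM with Ftl1 over 46 C10 libraries, the first 5 of 1820 genes compared were Grik3 (0.974), F630206G17Rik (0.754), Tulp4 (0.611), Pcdh15 (0.603) and Ndufa4 (0.594), and 4 of these 5 span a ferritin light chain copy. Over 48 SVEC libraries the first 5 of 447 were Grik3 (0.911), Pcdh15 (0.841), Tulp4 (0.715), Rpl19 (0.684) and Cox17 (0.625), of which 3 span a copy. For Fth1 the first 5 in C10 were Cox5a (0.699), Myo7a (0.62), Arpc5l (0.611), Rab5if (0.607) and Cox17 (0.596), and in SVEC Serf2 (0.673), Atp5g3 (0.635), Fam221b (0.621), Rplp1 (0.617) and Cox14 (0.612). For Tfrc they were Siva1 (0.534), Ranbp1 (0.511), Camk1d (0.456), Fscn1 (0.428) and Tpi1 (0.38) in C10, and Cdk4 (0.475), Hspa5 (0.423), Atp5b (0.371), Cnot6 (0.363) and Arf1 (0.353) in SVEC. Fth1 and Ftl1 had a correlation of 0.411 in C10 and 0.522 in SVEC. In SVEC the median correlation of all compared genes with Fth1 was 0.212, against 0.0448 in C10. All these values share library totals, and Tfrc correlated with the total itself at 0.453 in SVEC.

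Between the lines, mean ferritin levels were less than 2-fold apart. Fth1 averaged 1363 ± 842 CPM in SVEC (SD, n = 48, lowest 115, median 1169, highest 4552) beside 1888 CPM in C10, and C10 was the higher in 74.4% of pairs of a C10 and an SVEC library. Ftl1 averaged 6413 ± 3758 CPM in SVEC (lowest 1159, median 5494, highest 19049, SD, n = 48), and C10 was the higher in 51% of pairs. Neither gene was 2-fold apart in mean CPM. Mean Fth1 was 1.39-fold higher in C10, 1.81-fold with TMM factors and 1.52-fold by medians. Ftl1 was lower in C10 by 0.12 on the log2 scale of mean CPM but higher by 0.23 with TMM factors. Ftl1 was the gene with the most reads in 7 of 48 SVEC libraries and in none of the C10 ones, and its median rank was 7 in SVEC and 9 in C10. Per base of transcript it led in 21 of 48 SVEC libraries. Each library is 1 cell and no culture is named, so each line counts as 1 sample and no test was made. Of the other ferritin rows in the tables, the 6 Fthl17 genes and Fthl17-ps1 had no counts, and neither had Ftmt, the mitochondrial ferritin, in any single cell.

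Tfrc, the receptor that takes up iron-loaded transferrin, was high in a few libraries of few cells and even in libraries of 10. The 1-cell libraries held 605 CPM (number 5) and 383 CPM (number 6), and the other 6 held between 0 and 3.70 CPM. In 3-cell libraries Tfrc ranged from 0.145 to 107 CPM with a median of 22.4, and in 10-cell libraries from 37.3 to 114 CPM with a median of 56.6 (n = 6 each). The mean was 124 ± 236 CPM with 1 cell (SD, n = 8) and 62.6 ± 27.5 CPM with 10 cells (SD, n = 6). The log2 difference of 10 cells against 1 cell was -1.26 with a standard error of 1.72 (edgeR adjusted p = 0.957). With limma on log2(CPM + 1) the direction turned, to 3.27 (adjusted p = 0.151). In libraries of 3 or 10 cells, fewer cells with an mRNA and less of it per cell cannot be told apart.

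Single cells showed the same uneven pattern for Tfrc. In C10, 30 of 46 libraries had a count, of which 17 reached 10 CPM, and the mean was 46.3 ± 108 CPM (lowest 0, median 0.631, highest 667, SD). In SVEC, 26 of 48 had a count, 22 reached 10 CPM, and the mean was 129 ± 218 CPM (lowest 0, median 2.99, highest 965, SD). Mean Tfrc was 2.78-fold higher in SVEC, and 3.42-fold higher by summed counts over the group totals. Each line held 4686 Tfrc counts (exact 95% Poisson interval 4552 to 4823, which covers counting error only). The group totals were 29017802 counts in SVEC and 99332009 in C10. Among libraries with more than 10 Tfrc counts the median was 233 CPM in 20 SVEC cells and 91.9 CPM in 15 C10 cells. After thinning to 100000 counts, 22 of 42 SVEC libraries and 17 of 45 C10 libraries kept a count, with exact 95% intervals of 36.4% to 68% and 23.8% to 53.5% that overlap. SVEC was the higher in 46.3% and C10 in 37.7% of library pairs.

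Slc11a2, the divalent metal transporter, had counts in 4 of 8 libraries of 1 cell, at 59.3 to 148 CPM in those 4. It had counts in 5 of 6 libraries of 3 cells and in 5 of 6 of 10 cells, where the highest value was 39.7 CPM and the median 25.0. The 10-cell group lay within the range of the 1-cell group (log2 difference -1.28, standard error 1.92, edgeR adjusted p = 0.972). In C10 single cells the mean was 55.3 ± 77.8 CPM (SD, 28 of 46 with a count). The SVEC mean was 37.2 ± 63.2 CPM (SD, 16 of 48 with a count). After thinning, 55.6% of 45 C10 libraries and 33.3% of 42 SVEC libraries had a count, with exact intervals of 40% to 70.4% and 19.6% to 49.5%. In SVEC, Slc11a2 and Tfrc had a Spearman correlation of 0.504, and 15 of the 16 libraries with Slc11a2 also had Tfrc counts. In C10 the correlation was -0.0245.

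Slc40a1, the iron exporter ferroportin, was the rarest of the 8. It had no count in 8 libraries of 1 cell, whose 79397624 summed counts allow up to 0.0378 CPM at a floor of 3 counts over the group. One 3-cell library (number 10) held 44.8 CPM from 486 counts, one 10-cell library (number 1) held 4 counts, and the remaining libraries held none. Genes were tested where 50% or more of the libraries in some group had a count, so Slc40a1 was not tested. Among single cells it had counts in 3 of 46 C10 libraries (6.52%, exact 95% interval 1.37% to 17.9%) and in 8 of 48 SVEC libraries (16.7%, interval 7.48% to 30.2%). The means were 3.91 CPM in C10 and 12.6 CPM in SVEC, a 3.22-fold higher mean in SVEC that rests on few libraries.

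Ncoa4, the receptor that delivers ferritin for breakdown, had counts in 4 of 8 libraries of 1 cell. Those held 63.0, 104, 119 and 542 CPM, and the other 4 held none. The 3-cell libraries ranged from 0 to 35.2 CPM (median 11.5) and the 10-cell libraries from 0 to 60.9 CPM (median 29.6, n = 6 each), so the groups overlapped (10 cells against 1 cell, log2 difference -2.51, standard error 2.07, edgeR adjusted p = 0.736). C10 single cells averaged 40.8 ± 54.5 CPM (SD, n = 46). SVEC single cells averaged 81.8 ± 139 CPM (SD, n = 48), 2.01-fold more. The direction depends on the summary: by medians C10 was the higher, at 20.8 CPM against 0, since 30 of 46 C10 and 22 of 48 SVEC libraries had a count. With TMM factors the mean was 1.65-fold higher in SVEC.

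Aco1, which encodes iron regulatory protein 1 and works as cytosolic aconitase when it holds an iron-sulphur cluster, was the only tested member past the threshold with edgeR. In 1-cell libraries it ranged from 0 to 1.78 CPM, with a median of 0.135 and 32 counts in all (n = 8). In 3-cell libraries it ranged from 0.0854 to 47.8 CPM with a median of 1.89, and in 10-cell libraries from 19.1 to 55.5 CPM with a median of 28.5 (n = 6 each). Every 10-cell library lay above every 1-cell library, and the 3-cell libraries spanned both. The log2 difference of 10 cells against 1 cell was 5.94 with a standard error of 1.77 (edgeR adjusted p = 0.0320), and that of 3 cells against 1 cell was 4.92 with a standard error of 1.70 (adjusted p = 0.0767). The first call was lost without the 1-cell library numbered 1 (adjusted p = 0.0580), without that numbered 14 (0.0514), without all 3 libraries numbered 1 (0.0757, left out after seeing the data) and with no filter on low counts (0.0528). Of all 13645 genes tested, 10.7% passed for 10 cells against 1 cell and 6.35% for 3 cells against 1 cell. Of the 1456 genes that passed for 10 cells against 1 cell, 1444 were higher with 10 cells, as Aco1 was. A count of 1 of 6 tested members is too few to read against that background.

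Ireb2, which encodes iron regulatory protein 2, was also low with few cells. It ranged from 0 to 6.24 CPM in 1-cell libraries (3 of 8 with a count), held 15.7 CPM in a single 3-cell library and none in the other 5, and ranged from 0 to 36.2 CPM in 10-cell libraries (5 of 6 with a count, median 12.1). The log2 difference of 10 cells against 1 cell was 3.95 with a standard error of 2.10 (edgeR adjusted p = 0.344), and limma on log2(CPM + 1) gave 2.99 (adjusted p = 0.0288). Ireb2 passed the filter only through the 10-cell group, where it had to be the higher, so neither p is support for a difference. For 10 cells against 3 cells no member passed, and 0% of all genes did with edgeR. At an unadjusted p under 0.05 edgeR gave 1346 genes there, DESeq2 called 258 after adjustment and limma 35.

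Most C10 single cells were as low as the 1-cell libraries for either regulatory protein, and a minority were higher. Aco1 averaged 31.3 ± 74.1 CPM in 46 C10 cells (lowest 0, median 0.291, highest 359, SD), with counts in 24, and 11 cells at 10 CPM or more. Ireb2 averaged 52.4 ± 118 CPM (lowest 0, median 0, highest 595, SD), with counts in 19 and 14 cells at 10 CPM or more. In SVEC the means were 14.5 ± 34.8 CPM for Aco1 (10 of 48 with a count) and 26.5 ± 68.3 CPM for Ireb2 (13 of 48, SD). Mean Aco1 was thus 2.15-fold higher in C10 and mean Ireb2 1.98-fold higher. From summed counts the ratios were 1.93 and 1.25. After thinning, the shares of libraries with a count overlapped in their exact intervals for both genes.

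**Figure D4:**
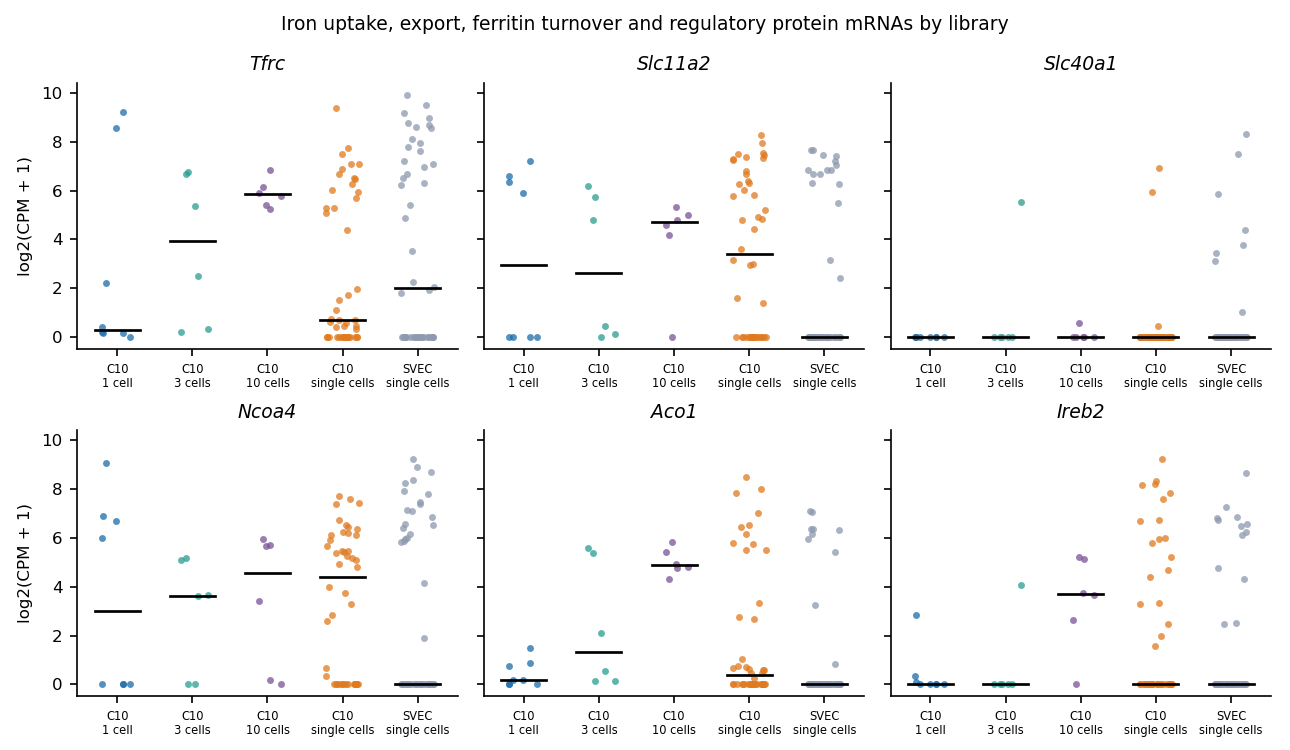
log2(CPM + 1) of Tfrc, Slc11a2, Slc40a1, Ncoa4, Aco1 and Ireb2 in each library of the 5 groups, with bars at the medians. Most single-cell and 1-cell libraries lie either at 0 or well above it, and Aco1 lies at 19.1 CPM or more in all 10-cell libraries but at 1.78 CPM or less in all 1-cell libraries.

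Across the lines, 1 member (Aco1) was at least 2-fold higher in mean CPM in C10 and 3 (Tfrc, Slc40a1 and Ncoa4) in SVEC, out of 8. Over the 8934 genes with a mean of at least 10 CPM in either line, 15.6% were at least 2-fold higher in C10 and 23.8% in SVEC, and counts of 1 and 3 out of 8 are too few to read against these shares. The number of the 8 with a count had a median of 5 per C10 single cell, 4 per SVEC cell and 7 per 10-cell library.

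The wider iron pathway was read from a list of 54 further genes. Of these, 35 reached 10 CPM in either line, and 5 were at least 2-fold higher in C10 and 5 in SVEC, beside the 15.6% and 23.8% of all genes. The split depends on the summary: it was 8 and 3 with TMM factors, 8 and 7 by summed counts, 8 and 4 after thinning and 12 and 2 by medians. The median log2 ratio of C10 to SVEC was 0.15 over the list and -0.12 over all genes. The clearest difference was Trf, which encodes transferrin itself: 410 ± 585 CPM in C10 (median 147, 40 of 46 with a count) against 4.79 ± 23.7 CPM in SVEC (median 0, 2 of 48, SD). C10 was the higher in 85.9% of library pairs. The C10 input libraries had Trf too, at means of 648, 564 and 367 CPM for 1, 3 and 10 cells. Slc39a8, a metal importer of the ZIP family, had counts in 9 of 46 C10 cells and in none of 48 SVEC cells, with a median of 0 in both. Its summed C10 level was 195-fold a floor of 3 counts over the SVEC group, which covers counting error only. C10 was the higher in 19.6% of pairs. Slc48a1, a haem transporter, averaged 167 ± 145 CPM in C10 (SD), against 39.0 ± 80.1 CPM in SVEC (SD), and was higher in C10 in 81.9% of pairs.

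Alas1, the first enzyme of haem synthesis, averaged 94.9 ± 147 CPM in SVEC and 30.3 ± 69.7 CPM in C10. Blvrb, a biliverdin reductase, averaged 92.8 ± 95.9 CPM in SVEC (35 of 48 with a count) and 31.1 ± 37.4 CPM in C10 (29 of 46). Lrp1, a receptor whose ligands include haem-hemopexin, averaged 162 ± 349 CPM in SVEC and 53.6 ± 144 CPM in C10 (SD throughout). Lrp1 had nearly equal medians, 4.07 and 3.64 CPM. By list, 2 of 8 measured genes of haem synthesis and 2 of 8 of haem breakdown and transport were at least 2-fold higher in SVEC, with 1 of 8 in each higher in C10, which are shares like those of all genes. Of 5 measured uptake genes, 3 were higher in C10 (Trf, Slc39a8 and Steap1, a metalloreductase family member named after its value was seen) and 1 in SVEC (Tfrc). Counts out of 5 are too few to read against the 15.6% and 23.8% of all genes.

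**Figure D5:**
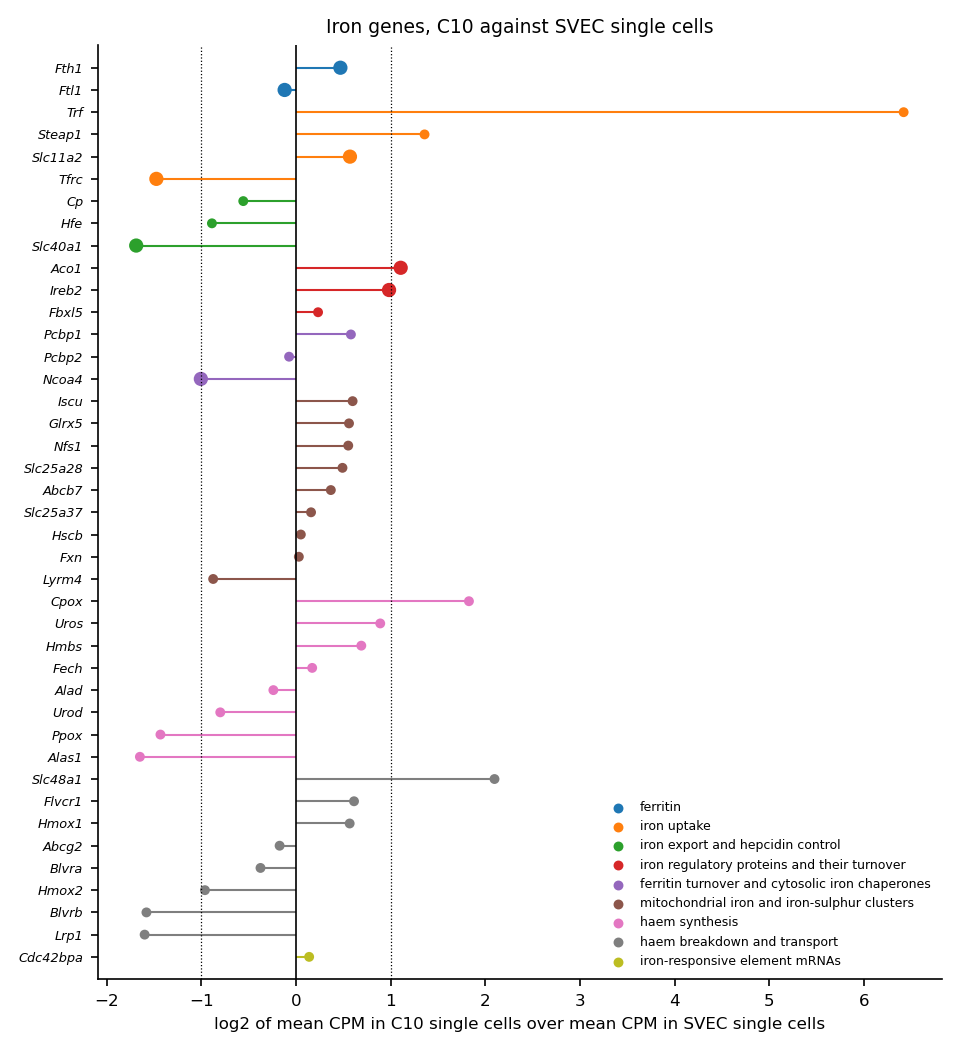
log2 ratio of mean CPM in C10 to SVEC single cells for the reported iron genes with at least 10 CPM in either line and counts in both, grouped and coloured by list; large points are members and dotted lines mark 2-fold. Trf lies farthest to the right at 6.42, and most genes lie within the dotted lines.

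Within the input series, 39 of the 54 list genes were tested and 1 passed for 10 cells against 1 cell, where 10.7% of all genes did. This was Slc25a37, mitoferrin 1, which had counts in 0 of 8 libraries of 1 cell, 1 of 6 of 3 cells and 5 of 6 of 10 cells. It passed the filter only through the 10-cell group, where it had to be the higher. Its 450 counts in the 10-cell group were at least 173-fold above a floor of 3 counts over the 1-cell group (edgeR adjusted p = 0.0300). Of these counts 425 came from the 10-cell library numbered 5, and without it the bound was 11.9-fold and the call was lost (adjusted p = 0.0887). For 3 cells against 1 cell, where 6.35% of all genes passed, 1 list gene did, Slc39a14, another ZIP family importer, named after its value was seen (adjusted p = 0.0398). All 201 of its 3-cell counts were in the library numbered 6, without which the log2 difference was -1.01 (adjusted p = 0.872). The median log2 difference of 10 cells against 1 cell was -0.35 over the tested list genes and 0.36 over all genes. Both the sign and the order depend on the method, since limma on log2(CPM + 1) gave 2.08 and 1.45.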

How the data were processed

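RNA was read from full-length cDNA as single reads of 150 bases, per the labels' protocols. The authors deposited whole-number read counts per gene symbol, with 5 closing counters that were left out of totals; FastQC, STAR and HTSeq are named in the submitters' processing notes, without versions, and the genome build, annotation and strand setting are not given in the sources used here. The members and lists were chosen with earlier results of these data known. Genes were named by a rule: the 8 members, up to 5 list genes with the smallest adjusted p past 0.05 for 10 cells against 1 cell, 3 list genes with the largest ratio in each direction between lines, and the 5 genes most like Fth1, Ftl1 and Tfrc. Libraries under 1000 counts (2 of C10) were left out. The input series was fitted with edgeR 4.0.16 (TMM, quasi-likelihood, 1 model of 3 groups, genes seen in 50% or more of some group's libraries), tested on simulated data; DESeq2 1.42.0 and limma 3.58.1 were alternatives. P-values measure only the spread between libraries. Standard errors beside edgeR results were worked back from the log2 difference and the F statistic of its test. Reads carry no molecular identifiers, so intervals and floors cover counting error only. Single cells were compared by mean CPM, with no test. One list gene is counted in totals but not reported here. Transcripts, lengths and coordinates are from GENCODE M21 (GRCm38), which may not be the build of the files.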

Additional observations from a re-analysis of the deposited data

Results flagged for a closer look

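In the 3 input groups, 23 sets of member values were checked for a library far from the rest of its group, and 6 stood out. Chance gives about 1 in 20 where values follow a normal distribution. That does not hold for sets mostly at 0: in 3 of the 6 every other library was at 0, so that any count stands out. Ncoa4 stood at 542 CPM in the 1-cell library numbered 14, against 0 to 119 CPM in the other 7. Aco1 stood at 1.78 CPM in the 1-cell library numbered 5, against 0 to 0.838 CPM in the others. Ireb2 stood at 6.24 CPM in the 1-cell library numbered 13, against 0 to 0.251 CPM. In the 3-cell library numbered 10, Ireb2 stood at 15.7 CPM and Slc40a1 at 44.8 CPM, and all other 3-cell libraries held 0 of either. Slc40a1 stood at 0.481 CPM, from 4 counts, in the 10-cell library numbered 1 and at 0 in the others.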

How the results depend on the processing

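For 10 cells against 1 cell, 1456 genes and 1 member (Aco1) passed. Without a filter 48 genes and 0 members passed, and without all 3 libraries numbered 1 (added after seeing the data) 323 genes and 0 members. DESeq2 and limma each called 2 members, adding Ftl1 (-1.23, adjusted p = 0.0379, DESeq2) and Ireb2 (limma), which passed the filter only through the group where it is high. Leaving out 1 library at a time gave 336 to 2769 genes and 0 to 2 members. The median log2 difference over the list and over all genes was 0.0030 and 0.60 by library totals, -1.08 and -0.15 by DESeq2, and 2.55 and 2.30 under the replicate block. For 10 cells against 3 cells DESeq2 called 258 genes and limma 35, and leaving out 1 library gave 0 throughout. For 3 cells against 1 cell, 866 genes and 0 members passed; limma called 121 genes, no filter left 65, leaving out the libraries numbered 1 left 12, leaving out 1 library gave 32 to 2035 genes and 0 to 1 member, and DESeq2 called 1 member (Aco1). The replicate block gave 0 genes for 10 cells against 1 cell and for 3 cells against 1 cell, and 0 members; the Aco1 difference was then 5.37 (adjusted p = 0.147). Over all genes the correlations of same-numbered libraries ran from -0.0345 to 0.0922 (best with their own number in 1 or 2 of 6), short of the 0.1 taken here to mark pairs, although the libraries numbered 1 shared the ferritin values given above. Under the replicate block Tfrc turned to 5.01 and 0.28 for 10 and 3 cells against 1 cell, and Ncoa4 to -0.36 for 10 against 3 cells. Members not past the threshold turned direction elsewhere as well. For 10 cells against 1 cell, Ftl1 was 0.018 by library totals and 0.094 by limma, Tfrc 3.27 and Slc11a2 0.73 by limma. For 3 cells against 1 cell, Ftl1 was -0.58 by DESeq2 and -0.17 without the libraries numbered 1, and Tfrc 1.02 by limma. For 10 against 3 cells, Tfrc was -0.019 by DESeq2, and Slc11a2 1.11 by limma and 0.60 without the libraries numbered 1. Leaving out 1 library gave -0.41 to 0.079 and -0.15 to 0.36 for Ftl1 (10 and 3 cells against 1 cell), -0.56 to 0.36 for Slc11a2 (10 against 3 cells), and -6.35 to 5.39 for Ireb2 and -1.01 to 7.70 for Slc39a14 (3 cells against 1 cell). The cause of these turns was not tested. Between lines, medians gave 308 genes higher in SVEC against 2125 by means and 0 members against 3; summed counts gave 0 and TMM factors 2 members higher in C10 against 1. TMM factors moved the median log2 ratio of all genes from -0.12 to 0.19 and the split of genes from 1393 higher in C10 and 2125 in SVEC to 1994 and 1574. Between the C10 sets, medians gave 520 genes higher in 1-cell libraries and 1834 in single cells, against 1536 and 2808 by means; the Fth1 ratio stayed between 8.56 and 10.1 and the Ftl1 ratio between 1.86 and 2.12 in all 4 alternatives, of which 3 put Ftl1 past 2-fold. Libraries of few cells hold many zeros, which limits single genes below about 10 CPM.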
